A study of Mus musculus with 144 samples.

Results

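The liver response of C57BL/6J male mice to an atherogenic diet was measured on 6 expression arrays of a series of 144, chosen by their labels for strain, sex and diet. The 3 chow arrays (6C) came from males fed regular chow with 6% fat, and the 3 atherogenic arrays (HF) from males fed a diet with 30% fat that also contained cholic acid, a bile acid. Each array held whole-liver RNA of 1 animal, taken at 11 to 13 weeks of age. No transgene or engineered allele is named for these mice. Cholic acid and the higher fat came together in the atherogenic diet, so their parts cannot be told apart. The series crosses the same diets with 12 inbred strains and both sexes. Comparison groups were 6 arrays of C57BL/6J females, 3 on each diet, and 48 arrays of males from 8 other strains of the same age: BALB/cJ, 129S1/SvImJ, DBA/2J, A/J, NZB/BINJ, C3H/HeJ, I/LnJ and MRL/MpJ-Tnfrsf6lpr/J, which carries the lpr allele of the Fas receptor gene.

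Hepatocytes hold their cholesterol steady with opposed controls. When membrane sterol is low, SREBP2 is released from the endoplasmic reticulum and switches on the enzymes of cholesterol synthesis, and when oxysterols accumulate, the nuclear receptor LXR switches on sterol export and SREBP1c. Bile acids made from cholesterol act on the nuclear receptor FXR, which restrains their own synthesis. Cholate-containing atherogenic diets are known to load the mouse liver with cholesterol and to bring inflammation and early scarring, to which C57BL/6J is a classically susceptible strain.

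Values are log2 intensities, and a change is the mean of the 3 atherogenic arrays minus the mean of the 3 chow arrays, given with its standard error (SE) from limma. That SE rests on a spread per gene shared by all groups of 120 arrays from 10 strains, not on these 6 arrays alone. A gene was said to rise or fall where its Benjamini-Hochberg adjusted p over 18193 genes was under 0.05. By that rule 2044 genes (11.2%) changed in the males, of which 1308 (7.19% of all tested) rose and 736 (4.05%) fell, and the median change of all genes was -0.03. At 2-fold or more, 378 rose and 54 fell. Every atherogenic array lay above every chow array for 2067 genes (11.4%) and below for 2230 (12.3%), and 1876 of the 2044 called genes were separated in this way. The 6 arrays matched their labels on Xist (4.49 to 4.92, against 11.23 to 11.59 in C57BL/6J females), on the Y-linked gene Eif2s3y (8.86 to 9.08, against 3.44 to 3.82) and on Nnt, which is mutated in C57BL/6J (9.0 to 9.63, against at least 10.15 in the other 9 strains of that age). Alb, the plasma albumin that defines hepatocytes, lay between 14.45 and 14.53 on all 6.

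The atherogenic males had a wide spread among themselves. The square root of the mean variance over genes was 0.232 on the log2 scale, the highest of 48 groups, against a median of 0.16. The 48 groups include the strains CAST and PERA, which were harvested at an older age. Atherogenic CAST males were next at 0.231. Among atherogenic groups of the same age, A/J females followed at 0.205, A/J males at 0.202 and 129S1/SvImJ males at 0.201. Replicate 2 lay farthest from chow for 994 of the 1308 genes that rose, with a median of 0.97 above the chow mean, against 0.58 for replicate 1 and 0.48 for replicate 3. Replicate 3 lay nearest to chow for 768 of them. The 736 genes that fell showed no such order, with medians of -0.41, -0.43 and -0.40. Without atherogenic replicate 2 the fit called 1133 genes, of which 695 rose and 438 fell. Because the SE and adjusted p use a spread shared by all fitted groups, they understate the wider spread of these atherogenic males. With the 6 male arrays alone 619 genes were called.

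Cholesterol synthesis fell as a group. Of 17 measured enzymes of the pathway 15 fell, against 4.05% of all genes tested, none rose, and the median change was -1.17. The list is ordered here along the pathway, from acetyl units to the sterol rings. Hmgcs1, which makes HMG-CoA, stood at 11.52, 11.69 and 11.67 in the chow arrays and at 9.80, 9.32 and 10.78 in the atherogenic arrays, a fall of 1.66 (SE 0.32, adjusted p = 7.3e-05). Idi1, which isomerises the isoprene unit, went from 10.34, 10.33 and 10.73 to 7.99, 7.40 and 8.11 (change -2.63, SE 0.37, adjusted p = 9.9e-08). Fdps, which joins these units to farnesyl pyrophosphate, went from 10.95, 11.21 and 11.18 to 8.76, 7.36 and 9.74, and the atherogenic arrays thus spanned more than 2 log2 units while staying below all chow arrays. Sqle, the squalene epoxidase, fell furthest in the pathway. It measured 8.43, 8.33 and 8.93 on chow and 5.50, 5.14 and 6.25 on the atherogenic diet, a 7.65-fold drop (SE 0.39 on the log2 scale, adjusted p = 1.7e-08). Among the later enzymes, the lanosterol demethylase Cyp51 went from 9.35, 9.42 and 9.62 to 6.81, 6.22 and 6.98 (6.93-fold lower). Msmo1 (-2.49) and Nsdhl (-1.97), which remove the C4 methyl groups of lanosterol, fell as well. Mvd (-0.33, adjusted p = 0.643) and Sc5d (-0.47, adjusted p = 0.0941) did not pass. Of the 3 atherogenic arrays replicate 2 was the lowest and replicate 3 the highest for each of the 7 enzymes plotted. Without replicate 2, 10 of the 17 fell and the median was -0.94. The calls lost then were Dhcr7 (-0.77), Pmvk (-0.76), Fdft1 (-0.74), Mvk (-0.60) and Ebp (-0.28). Mvk was also lost without chow replicate 3 (-0.69) or atherogenic replicate 1 (-0.70), and Fdft1 without chow replicate 3 (-0.78).

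**Figure D1:**
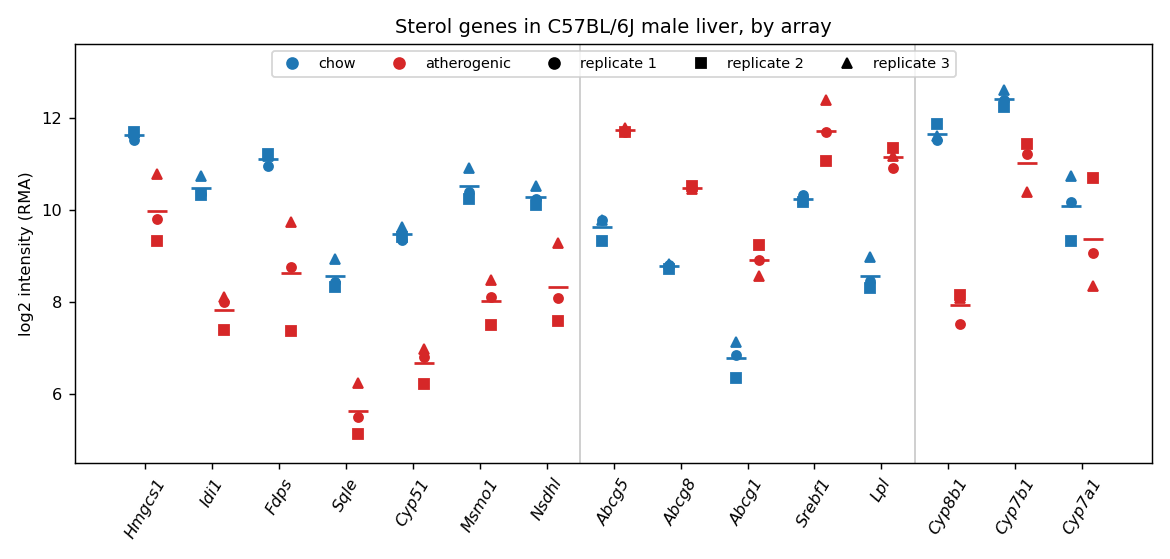
Deposited log2 intensities (y axis) of 15 sterol genes in each C57BL/6J male array, with chow in blue, the atherogenic diet in red, 1 marker shape per replicate and a bar at each mean of 3 arrays. From the left, 7 cholesterol synthesis genes lie lower on the atherogenic diet, 5 LXR target genes lie higher, and of 3 bile acid synthesis genes Cyp8b1 and Cyp7b1 lie lower while the arrays of Cyp7a1 overlap.

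SREBP proteins bind sterol regulatory elements, and they are known to act with NF-Y, which binds CCAAT boxes. The promoter of Hmgcs1 is shown because it was the single one, among 14 genes of the pathway with a RefSeq promoter, whose 250 bases upstream of the start held the sterol regulatory element letters TCACNCCAC on either strand. That share is 1 of 14, against 1.22% of 27025 genes. CCAAT, searched on both strands, was in all 14 (37.49% of all genes), and Cyp51 is shown as an example with a single match, picked after its values were seen. Capitals mark TCACNCCAC and CCAAT matches, the latter also as ATTGG where they lie on the other strand. Positions are on GRCm38.p6, from the RefSeq table: chr13:119690101-119690350, plus strand, for Hmgcs1 and chr5:4104698-4104947, minus strand, for Cyp51, each ending at the base before the start. The TCACCCCAC match lies 137 to 129 bases before the start of Hmgcs1, and the CCAAT match 29 to 25 bases before that of Cyp51. A match describes the letters alone and says nothing about binding in these livers.
Hmgcs1: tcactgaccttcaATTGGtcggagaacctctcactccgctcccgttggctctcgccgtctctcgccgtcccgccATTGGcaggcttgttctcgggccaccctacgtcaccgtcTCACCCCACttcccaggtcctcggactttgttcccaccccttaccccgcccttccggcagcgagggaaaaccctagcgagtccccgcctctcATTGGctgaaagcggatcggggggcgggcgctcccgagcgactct
Cyp51: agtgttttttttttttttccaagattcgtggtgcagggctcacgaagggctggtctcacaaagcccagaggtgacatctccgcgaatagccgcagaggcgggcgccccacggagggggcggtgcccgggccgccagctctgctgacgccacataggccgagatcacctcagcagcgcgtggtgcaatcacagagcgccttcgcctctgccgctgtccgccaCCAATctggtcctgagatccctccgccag

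Other genes of sterol handling moved both ways. Of 13 members of the sterol sensing and uptake list 5 rose and 2 fell (median 0.22), against 11.2% of all genes called. With chow replicate 3 or atherogenic replicate 2 left out 1 or none fell. Scarb1, the receptor that takes cholesteryl esters from HDL, rose from 10.19, 10.07 and 10.16 to 11.29, 11.06 and 11.35 (change 1.09, SE 0.15, adjusted p = 6.5e-08). Rnf145, a ubiquitin ligase of sterol sensing, rose by 1.33, and Npc2, which carries cholesterol out of lysosomes, by 0.78. Stard4, a sterol carrier, fell by 0.94, and Scap, the escort of the SREBPs, by 0.37. Srebf2 itself changed by -0.30 (adjusted p = 0.115) and Insig1, which retains SCAP when sterol is high, by -0.85 (adjusted p = 0.115). Insig1 stood at 9.28, 7.71 and 9.48 in the atherogenic arrays against 9.74, 9.57 and 9.69 in chow, and replicate 2 lay far below the other two. Stard4 (-0.62) and Scap (-0.31) lost their calls without that array, and Scap also without chow replicate 3 (-0.32).

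Most LXR targets rose, and their mean was nearly the same in the 3 atherogenic arrays. Of 11 measured, 7 rose, against 7.19% of all genes, and none fell (median 0.70), and the list's mean stood 1.10, 1.07 and 1.15 above the chow mean in atherogenic replicates 1, 2 and 3. Abcg5 and Abcg8 form the pump that sends sterols into bile. Abcg5 measured 9.77, 9.32 and 9.79 on chow and 11.70, 11.70 and 11.78 on the atherogenic diet, a rise of 2.10 (SE 0.15, adjusted p = 2.5e-20). Abcg8 went from 8.80, 8.71 and 8.83 to 10.48, 10.51 and 10.46 (change 1.70, SE 0.17). In both genes the 3 atherogenic arrays all but coincided, unlike the enzymes of synthesis. Abcg1, a sterol exporter prominent in macrophages, rose from 6.85, 6.35 and 7.12 to 8.91, 9.23 and 8.57 (4.38-fold). The triglyceride lipase Lpl rose from 8.46, 8.29 and 8.97 to 10.91, 11.35 and 11.18 (5.94-fold), and Srebf1, which drives fatty acid synthesis, from 10.32, 10.17 and 10.24 to 11.70, 11.07 and 12.38 (change 1.47, SE 0.24, adjusted p = 3.9e-06). Abca1, which loads HDL, rose by 0.41, a call lost without atherogenic replicate 1 (0.30). Scd1 (0.62, adjusted p = 0.0974) and Pltp (0.13, adjusted p = 0.779) did not pass. Without atherogenic replicate 2, 8 of 11 rose.

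Bile acid synthesis fell in part: 5 of 14 genes fell, against 4.05% of all genes, and none rose (median -0.18). Without atherogenic replicate 2, 4 fell, and without chow replicate 2, 3 did. Cyp8b1, the sterol 12-alpha-hydroxylase that is needed to make cholic acid, was the second largest fall of all genes. It measured 11.51, 11.85 and 11.61 on chow and 7.53, 8.16 and 8.08 on the diet that contained cholic acid, 13.3-fold lower (SE 0.37 on the log2 scale, adjusted p = 4.9e-13), and the groups lay more than 3 log2 units apart. Cyp7b1, of the alternative pathway, fell from 12.39, 12.24 and 12.60 to 11.22, 11.42 and 10.38 (change -1.41, SE 0.24, adjusted p = 1.0e-05). Cyp27a1, the sterol 27-hydroxylase, fell by 0.56, and the conjugating enzyme Baat by 0.35, a call lost without chow replicate 2 (-0.27). Cyp7a1, the rate-limiting enzyme of the classical pathway, measured 10.17, 9.33 and 10.73 on chow and 9.05, 10.69 and 8.34 on the atherogenic diet. Its groups overlapped, with atherogenic replicate 2 near the top of chow, and its change of -0.71 did not pass (SE 0.60, adjusted p = 0.552). Of 20 genes of bile acid sensing and transport, 1 rose and 2 fell, close to the 11.2% of all genes called. Abcb1a, an ATP-driven efflux pump, rose from 4.70, 5.09 and 4.82 to 6.14, 6.07 and 6.48 (change 1.36), Abcc3, an exporter to blood, fell by 0.76, and Nr1h4, which encodes FXR, fell by 0.38 with an adjusted p of 0.0476. The call of Abcc3 was lost without atherogenic replicate 3 (-0.59), and that of Nr1h4 without any chow array (-0.33 to -0.41) or atherogenic replicate 1 (-0.32) or 2 (-0.38). Nr0b2, the FXR target SHP, changed by 0.76 (adjusted p = 0.126), and Abcb11, the bile salt export pump, by 0.14 (adjusted p = 0.57).

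Fatty acid synthesis did not move as a group. Of 23 genes 3 rose and 2 fell (median 0.04), against 11.2% of all genes called. The atherogenic arrays pointed in different directions: the list's mean differed from chow by 0.12, -0.36 and 0.61 in replicates 1, 2 and 3. Fasn, the fatty acid synthase, measured 9.14, 9.54 and 9.37 on chow and 9.68, 8.49 and 11.51 on the atherogenic diet, with replicate 2 below and replicate 3 above every chow array (change 0.54, adjusted p = 0.565). Acly (10.13, 9.48 and 11.14 in the atherogenic arrays) and Elovl6 (9.68, 9.02 and 11.03) had the same order. Scd2, a desaturase that is low in chow liver, was the clear exception and rose from 4.93, 4.56 and 4.66 to 7.26, 7.90 and 7.12 (6.54-fold, adjusted p = 2.9e-17). Fads2 rose by 0.72, which without replicate 3 was 0.36 and did not pass. Elovl5 rose by 0.56, 0.26 without replicate 3, and its call was lost too without chow replicate 1 (0.54) or 3 (0.46) or atherogenic replicate 1 (0.49). Elovl3 fell by 1.42, though its call was lost without chow replicate 2 (-1.35) or atherogenic replicate 2 (-1.37) or 3 (-1.32), and the malic enzyme Me1 fell by 1.19, lost without atherogenic replicate 2 (-0.81). Without that replicate 5 genes rose, none fell, and the median was 0.34.

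Fatty acid oxidation and PPARA targets leaned lower, with 5 of 24 falling, against 4.05% of all genes, none rising and a median of -0.20. Cyp4a14, an omega-hydroxylase of fatty acids under PPARA, led them: it measured 12.71, 12.78 and 12.86 on chow and 9.10, 9.66 and 10.39 on the atherogenic diet, 8.38-fold lower (SE 0.63 on the log2 scale, adjusted p = 2.0e-04). Cyp4a12a, a male-biased relative, fell from 12.15, 12.11 and 12.01 to 10.84, 10.33 and 10.54, and Ech1, of peroxisomal and mitochondrial oxidation, by 0.52. Acadm and Acadvl fell by 0.30 and 0.20, calls that most single arrays decided: Acadm was lost without any array but atherogenic replicate 3 (-0.32 to -0.27), and Acadvl without chow replicate 1 (-0.19) or 2 (-0.19) or atherogenic replicate 1 (-0.15) or 2 (-0.18). Ppara itself changed by 0.05 (adjusted p = 0.916), and Cpt1a, the carnitine palmitoyltransferase of mitochondrial entry, by 0.31 (adjusted p = 0.348). Without atherogenic replicate 1 or 2 or chow replicate 1 or 2, 3 of 24 fell, and without atherogenic replicate 3, 8 fell.

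Genes of lipid carriage held 3 marked rises. Apoa4, an apolipoprotein secreted with triglyceride, went from 9.20, 9.85 and 9.37 to 12.42, 11.77 and 12.84 (7.32-fold, SE 0.23 on the log2 scale, adjusted p = 1.2e-17). Fabp2, a fatty acid binding protein best known from intestine, went from 10.33, 10.99 and 10.37 to 12.12, 12.19 and 12.47 (change 1.70), and Apoc2, the activator of lipoprotein lipase, from 11.17, 11.44 and 11.25 to 12.81, 12.32 and 13.13 (change 1.46, SE 0.11, adjusted p = 9.5e-20). For Apoa4 and Apoc2 replicate 3 was the highest and replicate 2 the lowest of the atherogenic arrays, while Fabp2 was nearly level on all 3. In all, 3 of 19 lipid droplet genes rose and 2 fell, against 11.2% of all genes called. On the apolipoprotein list 3 of 16 genes rose and 2 fell. Without atherogenic replicate 2 these were 4 and 1, and 2 and 1. The apolipoprotein list also had 2 rises and 1 fall without chow replicate 2. Its calls that 1 array could end were Apobec1, the editing enzyme of Apob mRNA (0.73, 0.57 without atherogenic replicate 2), Mttp, which loads lipid onto apolipoprotein B (-0.37, -0.18 without atherogenic replicate 2 and -0.28 without chow replicate 2) and Apof (0.20, 0.17 without chow replicate 2 and 0.16 without atherogenic replicate 1). The droplet genes that fell were Fitm1 (-1.06) and Fitm2 (-0.58), which help droplets form, Fitm2 losing its call without atherogenic replicate 2 (-0.55). Plin2, the perilipin that coats hepatocyte droplets, changed by -0.14 (adjusted p = 0.747), Apob by 0.02 and Apoe by 0.07, none of which passed.

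**Figure D2:**
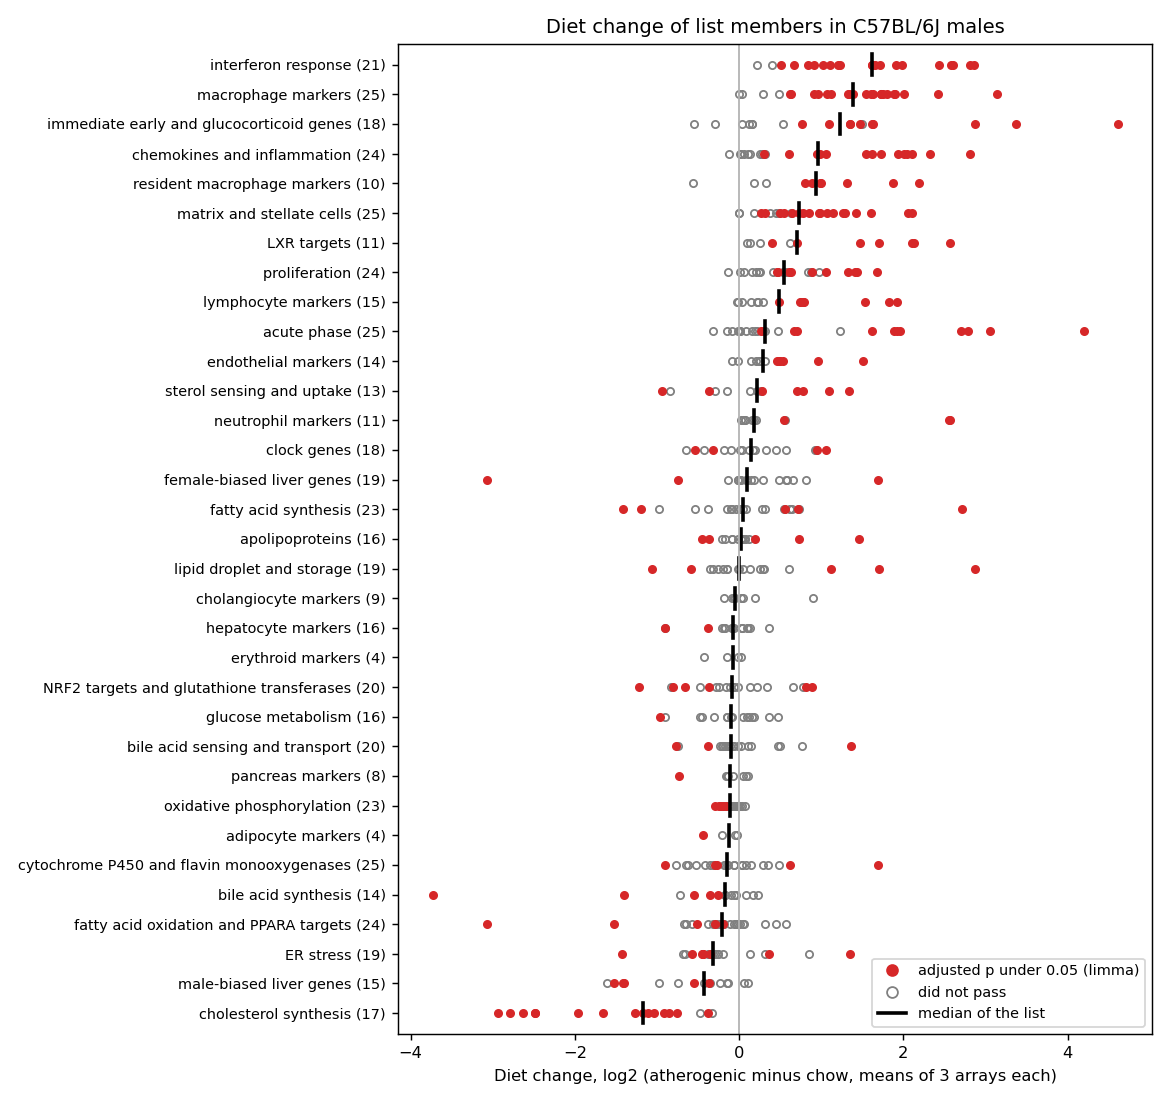
Diet change (x axis, log2, atherogenic minus chow means of 3 arrays each) of every measured member of 33 gene lists in C57BL/6J males; the number measured is in brackets, red points passed and open points did not, and a black bar marks each list's median. Medians run from -1.17 for cholesterol synthesis to 1.61 for the interferon response, and the medians of the hepatocyte, cholangiocyte and erythroid markers lie near 0.

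Acute phase genes rose in part. Of 25, 11 rose, against 7.19% of all genes, and none fell (median 0.32). Lcn2, an iron-scavenging lipocalin, went from 5.52, 5.73 and 5.83 to 10.22, 11.61 and 7.85, 18.4-fold (SE 0.66 on the log2 scale, adjusted p = 1.4e-06). Orm2, an acid glycoprotein, went from 7.20, 6.90 and 7.10 to 9.91, 11.72 and 8.74 (change 3.05), and the serum amyloid Saa1 from 8.85, 9.25 and 8.80 to 12.08, 13.12 and 9.79 (change 2.70, SE 0.60). Replicate 2 was the highest and replicate 3 the lowest for all 3, and for Saa1 replicate 3 stood close above the chow arrays. Saa1 and Saa2, and the Orm genes, are near copies of each other, so their probe sets may share signal. Abundant plasma proteins of the same list did not pass: Fgb changed by 0.01, Hp, haptoglobin, by 0.20 and Crp by 0.01. Without replicate 2, 5 of 25 rose and the median was 0.20. The lost calls included Saa1 (1.97), Saa2 (1.95), Saa3 (0.89) and Socs3 (1.19), Socs3 being lost also without chow replicate 2 (1.39).

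Chemokines and inflammatory mediators rose in 15 of 24 cases, against 7.19% of all genes, with none falling and a median of 0.96. Cxcl9, a T-cell attracting chemokine, measured 8.15, 8.66 and 7.63 on chow and 11.10, 12.64 and 9.14 on the atherogenic diet (change 2.81, SE 0.59, adjusted p = 2.6e-04). Cxcl10 went from 6.23, 6.77 and 6.41 to 8.80, 10.80 and 6.79, so that replicate 3 all but met the chow arrays while replicate 2 stood 4 log2 units above the highest of them. Vcam1, an adhesion molecule for leukocytes, was steadier, from 7.11, 7.29 and 7.16 to 9.16, 9.84 and 8.37 (change 1.94, SE 0.29, adjusted p = 4.3e-07), as was Ccl6 (7.83, 7.75 and 7.60 to 9.62, 10.67 and 9.02). Tnf (0.13) and Il6 (0.03) stayed near their chow levels and did not pass. Without replicate 2, 6 of 24 rose and the median was 0.46. Calls then lost were Cxcl10 (1.33), Tnfaip3 (1.11), Ccl5 (1.02), Icam1 (1.03), Cxcl2 (0.67), Il1b (0.54), Il1rn (0.38), Ccl2 (0.15) and Ccl7 (0.19). Ccl2 and Ccl7 were lost as well without chow replicate 1 (0.84 and 0.27), and Ccl2 without chow replicate 3 (0.98).

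The interferon response rose nearly throughout. Of 21 measured genes 19 rose, against 7.19% of all genes, and none fell, with a median of 1.61. The list's mean stood 1.24, 2.18 and 1.13 above chow in replicates 1, 2 and 3. That median was the highest of the lists over the 6 arrays. Macrophage markers stood higher without atherogenic replicate 3 (1.60 against 1.59) and with the mean of probe sets. They also did with array weights and among genes above the median gene. With array weights the immediate early and glucocorticoid genes stood higher too (1.366 against 1.335). Among genes above the median gene so did neutrophil (2.56, 3 genes) and lymphocyte markers (1.53, 5 genes), against 1.42. Type I and type II interferons work through STAT proteins, and target promoters carry interferon-stimulated response elements. Among targets that interferon gamma is known for, Gbp2, a guanylate-binding protein, went from 6.05, 6.19 and 6.26 to 8.94, 10.98 and 7.16 (7.28-fold), Gbp3 from 6.51, 6.41 and 6.46 to 8.76, 10.10 and 7.82 (change 2.43) and Irf8 from 5.92, 6.17 and 6.09 to 7.80, 8.97 and 7.14 (change 1.91, SE 0.28, adjusted p = 1.8e-07). Each had replicate 2 highest and replicate 3 lowest, without overlap with chow, and without replicate 2 Gbp2 changed by 1.89. Among antiviral genes, Oasl2 went from 5.18, 5.19 and 5.24 to 7.12, 8.38 and 7.86 (change 2.58, SE 0.30, adjusted p = 2.3e-10) and Ifit2 from 4.72, 4.98 and 4.82 to 6.60, 8.31 and 7.44 (change 2.61), and here replicate 1 was the lowest. Psmb8 (1.65) and Psmb9 (1.98), the immunoproteasome subunits, rose too. Iigp1 (0.40) and Mx2 (0.22) did not pass. Without replicate 2, 13 of 21 rose and the median was 1.21. The calls lost were Igtp (1.07), Irf1 (0.69), Ifit1 (0.94), Rsad2 (0.74), Oasl1 (0.51) and Stat2 (0.36). Of these, Ifit1, Oasl1, Rsad2 and Stat2 were also lost without chow replicate 1 (1.04, 0.45, 0.76 and 0.46), Ifit1 and Oasl1 without chow replicate 2 (1.11 and 0.62), Stat2 without chow replicate 3 (0.51), and Oasl1, Rsad2 and Stat2 without atherogenic replicate 3 (0.59, 0.82 and 0.50).

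Of the 18 interferon genes with a RefSeq promoter, 9 held TTTC, any 2 bases and TTTC, the core of an interferon-stimulated response element, within 250 bases upstream on either strand, against 3.46% of 27025 genes. Gbp2 and Igtp are shown as a rise of an interferon gamma target with the motif on each strand, and were picked after their values were seen. The windows are chr3:142620413-142620662 for Gbp2 and chr11:58199306-58199555 for Igtp, plus strand, GRCm38.p6, and capitals mark the motif, written GAAACTGAAA where it lies on the other strand. It ends 50 bases before the start in Gbp2 and 25 bases before it in Igtp.
Gbp2: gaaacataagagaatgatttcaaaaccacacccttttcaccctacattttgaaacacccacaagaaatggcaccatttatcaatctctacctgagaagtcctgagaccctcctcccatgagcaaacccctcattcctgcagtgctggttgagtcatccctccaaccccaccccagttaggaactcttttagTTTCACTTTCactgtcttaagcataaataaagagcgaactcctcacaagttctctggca
Igtp: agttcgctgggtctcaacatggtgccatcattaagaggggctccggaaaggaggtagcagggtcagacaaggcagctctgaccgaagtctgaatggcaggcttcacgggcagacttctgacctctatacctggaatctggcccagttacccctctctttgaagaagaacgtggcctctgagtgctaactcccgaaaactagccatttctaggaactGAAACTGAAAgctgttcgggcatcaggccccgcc

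Markers of several non-parenchymal cells rose, and in whole liver a higher level can come from more cells of a type or from more RNA per cell, which cannot be told apart here. Macrophage markers rose in 21 of 25 cases, against 7.19% of all genes, with none falling (median 1.39). Lgals3, a galectin of activated macrophages, went from 7.27, 7.07 and 7.13 to 9.93, 11.44 and 9.54 (8.84-fold, SE 0.35 on the log2 scale, adjusted p = 8.4e-11). Cd68 went from 7.19, 7.13 and 7.09 to 8.77, 9.53 and 8.38 (change 1.75), Mpeg1 from 9.24, 9.35 and 9.22 to 11.32, 11.87 and 10.63 (change 2.01) and Gpnmb, of lipid-laden macrophages, from 5.44, 5.58 and 5.47 to 6.98, 7.63 and 7.54 (change 1.89). No atherogenic array of these 4 genes reached down to chow. Adgre1, which encodes F4/80, rose by 1.07, 0.81 without replicate 2, when it did not pass. Trem2 (0.04) and Ccr2 (0.00) did not pass. Without that array 19 of 25 rose (median 1.09). Of 10 markers of the resident Kupffer cells 7 rose: Cd5l from 9.98, 9.95 and 10.18 to 11.95, 12.31 and 11.47 (change 1.87, adjusted p = 7.2e-10), Clec4f by 1.00 and Vsig4 by 0.80. Timd4 stood at 7.12, 8.27 and 5.94 in the atherogenic arrays against 5.65, 5.73 and 6.01 in chow, so replicate 3 lay within chow, and its call was lost without replicate 2 (0.73), as was that of Hmox1 (0.50), which degrades heme. Cd163, the scavenger of haptoglobin-bound hemoglobin, changed by -0.56 (adjusted p = 0.352).

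Matrix and stellate cell genes rose in 18 of 25 cases, against 7.19% of all genes, with none falling and a median of 0.73. Col3a1, a fibrillar collagen, went from 8.49, 8.64 and 7.95 to 10.30, 10.61 and 10.50 (change 2.11, SE 0.34, adjusted p = 2.6e-06) and Col1a2 from 7.30, 7.57 and 6.93 to 8.72, 9.12 and 8.77 (change 1.60). Mmp12, the macrophage elastase, went from 4.27, 4.5 and 4.33 to 6.25, 7.16 and 5.87 (change 2.06), and Pdgfrb, the platelet-derived growth factor receptor of stellate cells, from 6.25, 6.5 and 5.85 to 7.52, 7.45 and 7.42 (change 1.26). The atherogenic arrays of Col3a1 lay close together. Acta2, the actin of activated stellate cells, changed by 0.37 (adjusted p = 0.198) and Timp1 by 0.49 (adjusted p = 0.176). Without replicate 2, 12 rose, and Col1a1 (0.58) was among the calls lost. Chow replicate 3 was low for several of these genes, and without it Dcn, the proteoglycan decorin, changed by 0.63 instead of 0.98 and did not pass.

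Markers of other leukocytes and of endothelium rose in part, where 7.19% of all genes rose. Lymphocyte markers rose in 7 of 15 cases: Ptprc, the leukocyte surface CD45, went from 7.54, 7.09 and 7.63 to 9.44, 10.24 and 8.35 (change 1.92), Jchain from 4.53, 4.45 and 4.67 to 6.35, 5.83 and 6.08 (change 1.53), and the immunoglobulin heavy chain Ighm from 6.54, 7.16 and 6.35 to 9.19, 8.09 and 8.23 (change 1.82). Ighm has 10 other probe sets, of which 1 passed with a rise, and with the mean of all 11 Ighm did not pass. Without replicate 2, 3 of 15 rose, and Cd3d (0.36), Nkg7 (0.42), Gzmb (0.30) and Cd3g (0.33) were lost. Gzmb was also lost without any 1 chow array (0.73 to 0.75), and Cd3g without chow replicate 1 (0.43) or 3 (0.40). Of 11 neutrophil markers 3 rose, among them the calgranulins S100a8 (5.48, 5.70 and 5.98 to 7.67, 8.43 and 8.74, change 2.56) and S100a9 (change 2.56), for which replicate 3 was the highest, and 4 of 11 rose without replicate 2. The granule genes Elane (0.03) and Mpo (0.21) did not pass, and with Mpo at 4.96, 4.95 and 5.02 on chow and 5.04, 4.94 and 5.57 on the atherogenic diet they lay near the median of all probe sets, which was 5.0 to 5.09 over the arrays. Endothelial markers rose in 6 of 14 cases, with Lyve1, of sinusoidal and lymphatic endothelium, from 6.36, 6.78 and 6.29 to 8.21, 7.77 and 7.96 (change 1.5). They rose in 2 of 14 without replicate 2 and in 3 of 14 without chow replicate 3. None of 9 cholangiocyte markers passed, and the defining Krt19 (0.04) and Epcam (-0.06) lay near the same median. In 1 of the 9 every atherogenic array lay above every chow array. The 1 marker left among genes above the median gene changed by 0.90 and passed under that filter, and 1 marker rose without atherogenic replicate 2. Of 16 hepatocyte markers 2 fell, against 4.05% of all genes: Cyp1a2 by 0.91 and Hnf4a, the hepatocyte master regulator, by 0.38. Hnf4a was lost without chow replicate 1 (-0.32) or 2 (-0.34) or atherogenic replicate 1 (-0.32). Erythroid markers had no call in 4, pancreas markers 1 fall in 8 (Cela1, -0.73, lost without chow replicate 3 at -0.63) and adipocyte markers 1 fall in 4 (Car3, -0.44).

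**Figure D3:**
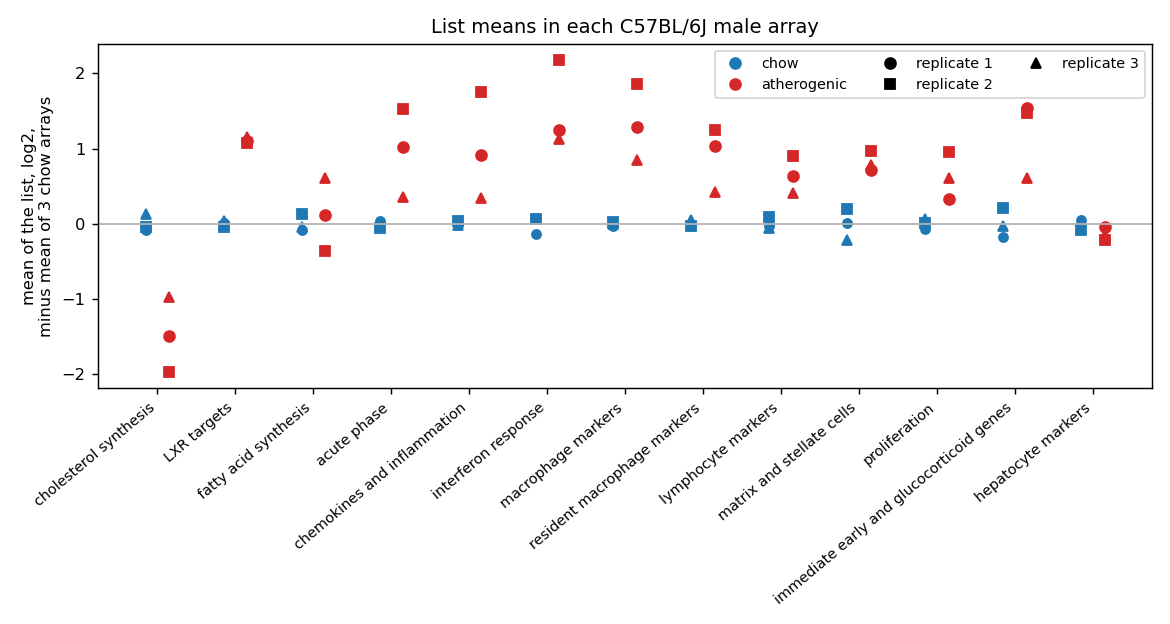
Mean of each gene list in every C57BL/6J male array (y axis, log2, minus the mean of the 3 chow arrays), chow in blue and the atherogenic diet in red, 1 marker shape per replicate. Atherogenic replicate 2 is highest for chemokines (0.91, 1.75 and 0.34 in replicates 1, 2 and 3) and lowest for cholesterol synthesis (-1.98), while the 3 arrays lie together for LXR targets.

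Proliferation genes rose in 10 of 24 cases, against 7.19% of all genes, none fell and the median was 0.55. Ccnd1, the cyclin of entry into the cycle, went from 7.68, 6.52 and 7.42 to 8.61, 8.58 and 8.67 (change 1.41, adjusted p = 0.00115), and Mki67, a marker of cycling cells, from 4.88, 5.11 and 4.98 to 5.90, 7.16 and 6.23 (change 1.44, adjusted p = 0.00695). Without replicate 2, 2 of 24 rose and the median was 0.36, and without chow replicate 1, 5 rose. Mki67 (1.07), Ccnb2 (1.48), Birc5 (0.93) and Top2a (0.74) were among the calls lost, Top2a also without chow replicate 1 (0.99) or 2 (1.05).

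Immediate early genes answer within minutes to growth factors, stress and tissue handling, and they were listed together with glucocorticoid and heat shock genes. Of the 18 genes of this mixed list 10 rose, against 7.19% of all genes, and none fell (median 1.22). Those that rose were Fos, Jun, Junb, Btg2, Ier2, Ier3, Atf3, Dusp1, Zfp36 and the glucocorticoid-induced kinase Sgk1 (0.76), while the glucocorticoid targets Tsc22d3 (-0.55) and Fkbp5 (0.15) did not pass. Dusp1 (1.34) lost its call without chow replicate 1 (1.23) or 2 (1.10) or atherogenic replicate 1 (1.18) or 2 (1.39), Ier3 (1.10) without atherogenic replicate 2 (0.61), and Sgk1 without that array (0.72) or chow replicate 2 (0.50) or 3 (0.70). Fos had the largest rise of all genes that passed: it measured 5.02, 5.36 and 5.53 on chow and 11.39, 10.75 and 7.62 on the atherogenic diet, 24.5-fold (SE 0.73 on the log2 scale, adjusted p = 1.5e-06). Jun went from 5.86, 6.69 and 6.01 to 10.13, 9.69 and 8.87 (change 3.37), Btg2 from 6.63, 6.86 and 6.94 to 10.59, 9.52 and 8.94 (change 2.87) and Junb from 6.35, 6.86 and 6.76 to 9.04, 8.56 and 7.27 (change 1.64). For these 4 replicate 1 was the highest, not replicate 2. Egr1 measured 7.13, 11.17 and 7.89 on chow and 11.31, 10.66 and 8.71 on the atherogenic diet, so chow replicate 2 carried a level like that of the atherogenic arrays, and its change of 1.5 did not pass (adjusted p = 0.177). How these genes relate to the time and manner of tissue collection was not tested. Without replicate 2, 7 of 18 rose. Among 18 clock genes, which mark the time of day, 2 rose and 2 fell, against 11.2% of all genes called. None of them passed without atherogenic replicate 2: Per2 (0.94), Usp2 (1.06), Clock (-0.54) and Bhlhe41 (-0.32) stood then at 0.90, 1.10, -0.51 and -0.26. Each was lost without chow replicate 2 as well (0.80, 0.85, -0.43 and -0.34). Per2, Clock and Bhlhe41 were lost without atherogenic replicate 1 (0.86, -0.52 and -0.31), Per2 and Bhlhe41 without chow replicate 3 (0.93 and -0.36), and Bhlhe41 without chow replicate 1 (-0.28).

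Of 15 male-biased liver genes 5 fell, against 4.05% of all genes, and none rose (median -0.43), namely 3 of the lipid genes described above, Cyp2u1 (-0.55) and Gstp1 (-0.36). The list had 3 falls without chow replicate 2 or without atherogenic replicate 2 or 3. Cyp2u1 did not pass without replicate 2 (-0.51), nor Gstp1 without chow replicate 1 (-0.35) or 2 (-0.35) or atherogenic replicate 3 (-0.22). Hsd3b5, a steroid dehydrogenase of male liver, measured 11.45, 11.73 and 11.71 on chow and 10.42, 10.05 and 9.59 on the atherogenic diet without passing (adjusted p = 0.084). Of 19 female-biased genes 1 rose and 2 fell, against 11.2% of all genes called. The falls were Cyp4a14, whose chow levels in C57BL/6J were alike in both sexes, and Lifr, the receptor of leukaemia inhibitory factor (-0.75). Lifr kept its call without atherogenic replicate 2 alone, and the other left-out arrays gave -0.81 (chow replicate 2) to -0.57 (atherogenic replicate 3). The rise was Cyp2b9, at 4.77, 5.08 and 4.70 on chow and 5.75, 5.45 and 8.42 on the atherogenic diet, and it rests on replicate 3: without it the change was 0.75 and did not pass. Of 25 cytochrome P450 and flavin monooxygenase genes 2 rose and 3 fell, against 11.2% of all genes called, or 2 each way without replicate 2. Cyp2c70, which makes muricholic acids, was up from 12.32, 12.19 and 12.45 to 13.02, 13.14 and 12.68 (change 0.62, adjusted p = 1.5e-05). Cyp3a11, the main drug-metabolising P450, changed by -0.06 (adjusted p = 0.64). The oxidant defence list, NRF2 targets with glutathione transferases, had 2 rises and 4 falls among 20, against 11.2% of all genes called. The falls included Ugdh (-1.22), which makes the sugar donor of glucuronidation. Both rises, Hmox1 (0.89) and the carbonyl reductase Cbr3 (0.82), were lost without atherogenic replicate 2 (0.50 and 0.36), when 5 genes of that list fell, and without atherogenic replicate 1 it had 2 falls. Its mean differed from chow by -0.25, 0.24 and -0.21 in replicates 1, 2 and 3. Among 19 genes of ER stress and amino acid shortage 6 were lower past the threshold and 2 higher, 8 in all against 11.2% of all genes called. The 6 falls were 3 without chow replicate 1 or atherogenic replicate 2, 1 without chow replicate 3 and 2 without atherogenic replicate 3. Asns, an asparagine synthetase induced by amino acid shortage, fell from 6.87, 6.44 and 6.52 to 5.05, 5.15 and 5.35 (change -1.43, SE 0.21, adjusted p = 3.1e-07), while Atf3 rose from 4.75, 5.14 and 4.71 to 6.55, 6.43 and 5.66 (change 1.34). The chaperone Hspa5 changed by -0.32 (adjusted p = 0.281) and Ddit3, which encodes CHOP, by 0.32 (adjusted p = 0.195). Of 23 oxidative phosphorylation genes 5 fell, against 4.05% of all genes, each by less than 0.3. None passed without atherogenic replicate 2, 8 fell without replicate 3, and 1 or 2 fell without any other of the 6 arrays. Of 16 glucose metabolism genes 1 fell, against 4.05% of all genes. It was Ppp1r3b, a glycogen-targeting phosphatase subunit (-0.96), whose call was lost without chow replicate 1 (-0.90) or 2 (-0.64) or atherogenic replicate 2 (-0.73).

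The largest changes outside these lists were led by Csad, which makes the taurine used to conjugate bile acids. Csad measured 11.68, 11.94 and 11.52 on chow and 7.63, 8.42 and 7.36 on the atherogenic diet, 15.1-fold lower (SE 0.45 on the log2 scale, adjusted p = 2.6e-10), and this was the largest fall of all. Dnase2a, a DNase of lysosomes, followed the same arrays, from 10.90, 10.93 and 10.72 to 7.33, 8.10 and 7.24 (9.81-fold lower). Serpina4-ps1 fell from 8.62, 9.76 and 10.13 to 7.28, 7.69 and 5.77, with a call that rests on replicate 3 (-2.02 without it), and being a pseudogene it may share signal with related serpins. Rdh11, a retinol dehydrogenase, fell by 1.69, and Dct, best known from melanin synthesis, from 7.02, 8.07 and 7.38 to 5.51, 5.54 and 5.69. Among the rises, Ubd, a ubiquitin-like modifier, went from 4.68, 5.17 and 4.38 to 8.59, 11.13 and 5.25 (11.9-fold), a span of nearly 6 log2 units between replicates 2 and 3, and it changed by 2.18 without replicate 2. Fgl2, a fibrinogen-like protein of activated macrophages and T cells, went from 4.25, 4.43 and 4.18 to 7.69, 8.49 and 5.95 (change 3.09), Plac8 from 7.31, 7.64 and 7.48 to 10.16, 11.38 and 9.73 (change 2.95), Calhm6 from 5.26, 5.62 and 5.51 to 8.13, 9.93 and 7.21 (change 2.96) and Pla2g7, which breaks down platelet-activating factor, from 5.71, 5.21 and 5.39 to 8.34, 9.43 and 7.15 (change 2.87). No atherogenic array of these genes overlapped chow, though replicate 3 of Ubd all but met it.

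C57BL/6J females answered the same diet with fewer calls: 237 genes (1.3%) changed, of which 79 rose and 158 fell. The difference itself was tested as the male change minus the female change. It was positive past the threshold for 281 genes (1.54%) and negative for 62 (0.341%), so 343 in all. Without atherogenic male replicate 2 the number was 72, of which 43 were positive and 29 negative, and without atherogenic male replicate 3 it was 650, so its size rests on single arrays. Left-out chow arrays gave 169 (replicate 1), 204 (replicate 2) and 221 (replicate 3). In cholesterol synthesis 16 of 17 genes fell in females (median -1.77), and none of the 17 passed the test of the difference. The list's mean was uneven in chow females, at 9.57, 10.03 and 10.70 in replicates 1, 2 and 3. In chow males it was 9.63, 9.68 and 9.85. Sqle fell by 4.10 in females against 2.93 in males (difference 1.17, SE 0.55, adjusted p = 0.345). Of the 11 LXR targets 6 rose in females, and Abcg1 rose more in males (2.13 against 1.01, adjusted p = 0.0163 for the difference), though no LXR target passed without atherogenic male replicate 2 or chow male replicate 2. Immune lists held more: 10 of 25 macrophage markers, 9 of 21 interferon genes, 5 of 25 acute phase genes and 3 of 24 chemokine genes were more positive in males, against 1.54% of all genes, and none was more negative. These counts rest on single male arrays, and no female array was left out alone. Without atherogenic male replicate 2 none of the macrophage, interferon and chemokine genes passed, and 3 acute phase genes did. Without chow male replicates 1, 2 and 3 the macrophage count was 3, 3 and 1, the interferon count 3, 6 and 6, the acute phase count 4, 3 and 3 and the chemokine count 1, 2 and 1. Without atherogenic male replicate 1 the 4 counts were 6, 8, 4 and 3, and without replicate 3 they were 16, 12, 11 and 14. Female medians of these lists were 0.24, 0.25, -0.09 and 0.10.

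The genes with the largest differences show that chow levels also differed. Lcn2 stood at 8.73, 9.06 and 8.43 in chow females, against 5.52, 5.73 and 5.83 in chow males, and at 9.08, 7.80 and 7.63 in atherogenic females (change -0.58), so that its difference of 4.78 (SE 0.94, adjusted p = 0.00194) combines a low male start with a high male end. Orm2 was alike, at 9.53, 10.21 and 9.79 and 8.97, 8.75 and 8.28 in females (difference 4.23, SE 0.77, adjusted p = 6.6e-04). Ubd, in contrast, started low in both sexes and stayed at 4.49, 4.25 and 4.57 in atherogenic females (difference 3.67, adjusted p = 0.0321), and Gbp8, another guanylate-binding protein, at 6.04, 5.61 and 5.88 against 8.13, 9.42 and 6.82 in males (difference 2.82, adjusted p = 0.0138). S100a8 stood at 5.87, 5.23 and 5.65 in atherogenic females against 7.67, 8.43 and 8.74 in males, without overlap (difference 3.30, adjusted p = 0.00137). Sult3a1, a female-biased sulfotransferase, fell in females from 11.15, 11.41 and 11.57 to 8.87, 10.30 and 8.69 and lay at 3.63, 3.81 and 3.79 in chow males, below the median of all probe sets (difference 2.75, adjusted p = 0.00314). Ubd lost the call of its difference without atherogenic male replicate 1 (3.53) or 2 (2.27) or chow male replicate 1 (3.64) or 3 (3.49), and Gbp8 without atherogenic male replicate 2 (2.17). On the negative side, Cyp4a14 fell in males and changed by 0.05 in females, from 12.57, 12.76 and 12.54 to 12.37, 12.70 and 12.96 (difference -3.12, SE 0.90, adjusted p = 0.0463), a call lost without any of the male arrays but atherogenic replicate 3 (-3.16 to -2.81). Csad (-2.97, adjusted p = 0.00602) and Dnase2a (-2.58, adjusted p = 0.00602) fell further in males, and in females both were high in chow replicate 3 (9.14, 9.22 and 11.05 for Csad and 8.79, 8.67 and 10.12 for Dnase2a in replicates 1, 2 and 3). Nlrp12, an NLR family gene, fell in males from 10.45, 10.88 and 10.50 to 9.19, 9.41 and 8.28 and changed by 0.14 in females (difference -1.79, adjusted p = 0.00118). Asns in chow females (5.10, 5.13 and 5.37) already stood at the level of atherogenic males.

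**Figure D4:**
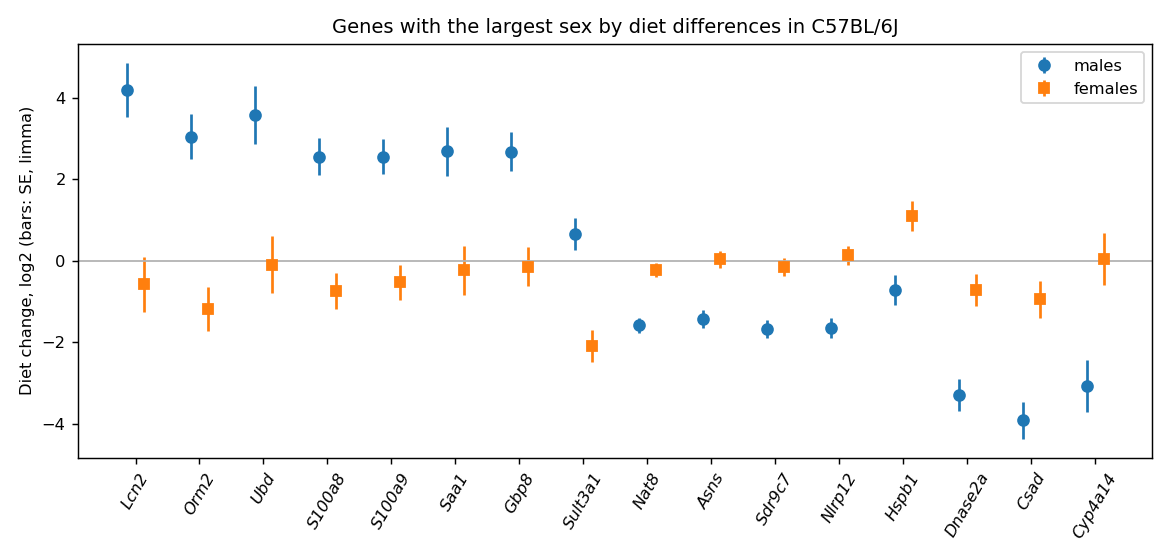
Diet change (y axis, log2) in C57BL/6J males (blue circles) and females (orange squares), 3 arrays per diet in each sex, for the 8 genes with the largest positive and the 8 with the largest negative sex by diet differences; bars are SE from limma. Males rise and females lie near or below 0 for Lcn2 to Gbp8, and males lie below females for Nat8 to Cyp4a14.

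Against the males of 8 other strains, the diet change of C57BL/6J males differed for 170 genes, being more positive for 97 (0.533%) and more negative for 73 (0.401%). This number was 285 without atherogenic replicate 3, and 71 and 86 without chow replicates 1 and 2. SM/J males were left out of the 8 because their diet labels are in doubt, and with them the number was 348. The SE and adjusted p of this difference hold the spread among animals within groups, not the spread among strains. A call thus does not by itself place C57BL/6J outside the range of the 8. No gene of the cholesterol synthesis and macrophage lists passed this test (medians in the other males -1.73 and 1.03). Without atherogenic replicate 2, 1 cholesterol synthesis gene passed. The interferon list had 5 of 21 more positive in C57BL/6J (3 without atherogenic replicate 2 and 11 without replicate 3) and none more negative, with a median of 0.35 in the other males against 1.61 here. Oasl2 rose by 2.58 here and changed by -0.40 to 1.79 in the 8 other strains (difference 1.95, SE 0.32, adjusted p = 2.8e-05), and Ifit2 by -0.28 to 1.69 there (difference 1.94, adjusted p = 4.0e-04). C57BL/6J lay above all 8 for both. Apoa4 rose by a mean of 1.20 in the other males, 1.67 less than here (adjusted p = 1.5e-06), and Apoc2 by 0.66, 0.80 less (adjusted p = 6.3e-07).

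Fos (-0.34 to 2.73 in the other strains) and Btg2 (0.14 to 1.72) were above all 8 as well, with differences of 3.08 (adjusted p = 0.0252) and 2.10 (adjusted p = 0.00113). That of Fos was lost without any 1 male array except atherogenic replicate 3 (2.35 to 3.20). Ighm rose here and changed by -0.92 to 0.62 there (difference 1.94, SE 0.24, adjusted p = 1.5e-08), again for a single probe set. Plac8 (difference 1.78) and Fgl2 (1.91) were more positive too, Fgl2 with 1 of the 8 strains, NZB/BINJ, above C57BL/6J. Both lost their calls without atherogenic replicate 2 (1.31 and 1.35). Csad changed by -1.87 to 0.34 in the other strains (difference -3.16, SE 0.48, adjusted p = 6.2e-06) and Dnase2a by -1.53 to 0.18 (difference -2.66, adjusted p = 1.3e-05), so neither range reached the C57BL/6J falls. Cyp8b1 fell further than in 7 of the 8 strains (difference -1.80, adjusted p = 0.00504), the exception being I/LnJ with -4.61. Nlrp12 (-1.55) and Adh6-ps1 (-1.19, adjusted p = 5.9e-13) were more negative than in all 8. Adh6-ps1, annotated as an alcohol dehydrogenase pseudogene, averaged 6.14 in C57BL/6J chow males and 4.12 to 4.68 in the other chow males, which lay below the median of all probe sets.

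**Figure D5:**
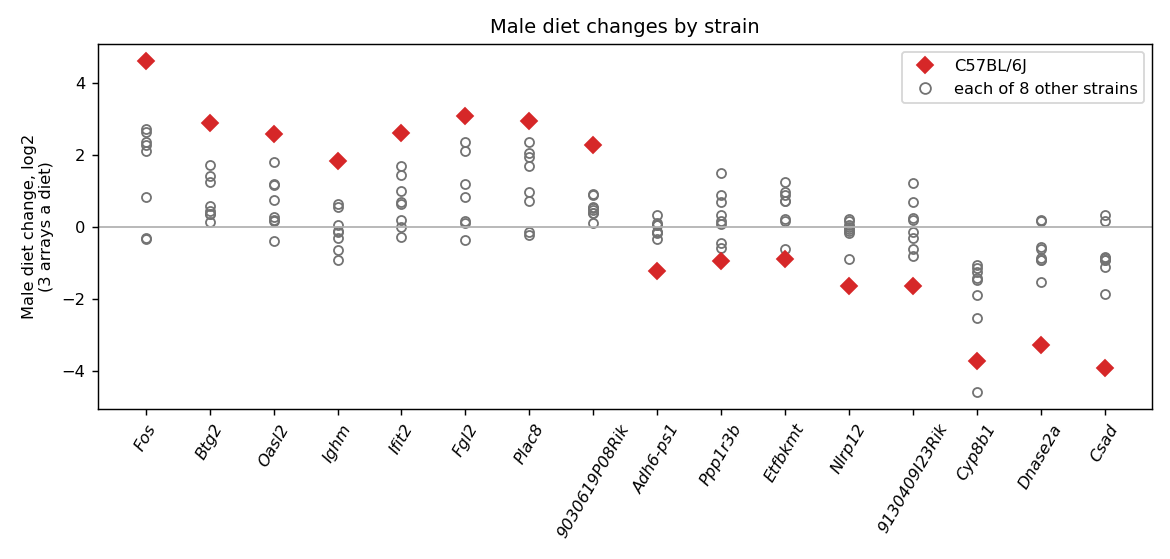
Male diet change (y axis, log2, means of 3 arrays a diet) in C57BL/6J (red diamonds) and in each of 8 other strains (open circles), for the 8 genes most positive and the 8 most negative in C57BL/6J against the mean of the others. C57BL/6J lies outside all 8 strains for 14 of the 16 genes, the exceptions being Fgl2 and Cyp8b1.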

How the data were processed

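Liver RNA of 144 mice was reverse transcribed from oligo(dT), transcribed into biotin-labelled cRNA and hybridised to 1 array per animal, per the labels' protocols. The deposited values are log2 intensities of 45101 probe sets summarised with RMA, per the submitters' processing notes, whose version and array set are not given in the sources used here, and range from 2.90 to 14.7. RMA fits each probe set over all arrays given to it, and low values are compressed, so folds of dim genes are understated. A gene was represented by the probe set with the highest mean (34945 probe sets, 18193 genes, of which 9010 had several), with symbols from GEO's platform annotation updated through RefSeq gene IDs. Limma 3.58.1 (R 4.3.3, lmFit and eBayes) was fitted to group means of 120 arrays from 10 strains of the same age, with Benjamini-Hochberg adjustment over all genes, and contrasts gave the diet change in C57BL/6J males, its difference from females and its difference from the mean of 8 other strains' males. The scripts were tested on simulated data with the same spread per gene in all groups. That test does not cover the wider spread of the atherogenic C57BL/6J males. Of 633 entries in 34 gene lists 569 were matched, and the rest were not analysed here.

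Members and lists were chosen with earlier results of these data known. Named genes were the 15 largest rises and 15 largest falls with separate arrays, the 8 largest differences each way, and per list fixed anchor genes and up to 6 further called members. Ccl7, Ccr2, Crp, Dcn, Ebp, Elane, Fdft1, Fgb, Fkbp5, Hp, Ier3, Igtp, Iigp1, Il1rn, Il6, Irf1, Mpo, Mvd, Mvk, Mx2, Oasl1, Pltp, Psmb8, Rsad2, Sc5d, Sgk1 and Stat2 were added after their values were seen. Replicates are animals, per the labels, and the main fit did not pair arrays by replicate number. Same-numbered chow and atherogenic males had correlations of their deviations of 0.06, -0.21 and -0.21. In females these were 0.09, 0.01 and 0.15, and with 3 arrays a group such values cannot decide whether arrays were paired. Alternatives were a replicate block, fewer arrays, other variance settings, weights, normalizations, probe set rules, a filter, a stricter threshold and left-out arrays. The number of arrays limits the precision.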

Additional observations from a re-analysis of the deposited data

Results flagged for a closer look

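The diet change of C57BL/6J males differed from that of C57BL/6J females for 343 genes and from that of the males of 8 other strains for 170 genes, by tests of the differences themselves (limma, Benjamini-Hochberg adjusted). The genes with the largest differences follow as values, with no cause tested.

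Between the sexes, as male minus female log2 diet change, the positive differences were 4.78 for Lcn2, 4.23 for Orm2, 3.67 for Ubd, 3.30 for S100a8, 3.09 for S100a9, 2.93 for Saa1, 2.82 for Gbp8 and 2.75 for Sult3a1. The negative ones were -3.12 for Cyp4a14, -2.97 for Csad, -2.58 for Dnase2a, -1.82 for the small heat shock protein Hspb1, -1.79 for Nlrp12, -1.52 for the dehydrogenase Sdr9c7, -1.47 for Asns and -1.37 for the acetyltransferase Nat8. Hspb1 measured 9.39, 10.01 and 9.95 in chow and 9.23, 9.29 and 8.70 in atherogenic males, but 8.80, 8.83 and 9.37 and 9.79, 10.29 and 10.24 in females, so the atherogenic mean was the lower one in males and the higher one in females. Its call was lost without any 1 of the 6 male arrays (-2.01 to -1.63). The difference of Saa1 had an adjusted p of 0.0495 and was kept without atherogenic male replicate 3 alone, the other left-out male arrays giving 2.20 (atherogenic replicate 2) to 3.07 (chow replicate 2).

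Against the other strains, as C57BL/6J minus the mean of 8, the positive differences were 3.08 for Fos, 2.10 for Btg2, 1.95 for Oasl2, 1.94 for Ighm, 1.94 for Ifit2, 1.91 for Fgl2, 1.78 for Plac8 and 1.75 for 9030619P08Rik. The negative ones were -3.16 for Csad, -2.66 for Dnase2a, -1.80 for Cyp8b1, -1.70 for 9130409I23Rik, -1.55 for Nlrp12, -1.44 for the methyltransferase Etfbkmt, -1.28 for Ppp1r3b and -1.19 for Adh6-ps1. The own diet change of Etfbkmt in C57BL/6J males was -0.91 and did not pass (adjusted p = 0.0706). Without atherogenic replicate 2, Fgl2 (1.35), Plac8 (1.31), Fos (2.67), Etfbkmt (-1.47) and Ppp1r3b (-1.05) lost their calls. Without atherogenic replicate 3, 9130409I23Rik (-1.15) and Etfbkmt (-1.28) did. Without atherogenic replicate 1, Fos (2.35), 9130409I23Rik (-1.65) and Ppp1r3b (-1.38) did. Among the chow arrays, replicate 1 decided Fos (2.94), Etfbkmt (-1.51) and Ppp1r3b (-1.22), replicate 2 decided Fos (3.11), Etfbkmt (-1.37), 9130409I23Rik (-1.67) and Ppp1r3b (-0.95), and replicate 3 decided Fos (3.20), Etfbkmt (-1.43) and 9130409I23Rik (-1.64). With the mean of all its probe sets Ighm did not pass.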

How the results depend on the processing

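Group sizes of 3 arrays and the spread of the atherogenic males limit the counts. The diet count in males was 2044 genes. It was 1267 with the 12 C57BL/6J arrays alone, 619 with the 6 male arrays alone, 1272 at an adjusted p under 0.01, 3353 over all probe sets as separate features, and 4636 with array weights, where 46.7% of the calls were rises instead of 64.0%. Leaving out 1 array or 1 replicate number gave 878 to 2133. The sex difference of 343 genes became 44 with the 12 arrays alone, 68 at 0.01, 811 with array weights, 174 with 1 variance per group (an alternative chosen after seeing the data) and 32 to 650 with an array or number left out. The strain difference of 170 genes became 63 at 0.01, 1514 with array weights, 81 with 1 variance per group, 348 with SM/J males included and 66 to 285 with an array or number left out. The replicate block, which pairs arrays by number, gave 2015, 354 and 176. The causes were not tested. Trended robust variances, quantile normalization, median centring, the mean of probe sets and the filter on dim genes kept the 3 counts within 1.5 times, and so did 1 variance per group for the diet count (1584). Of 231 genes called for diet and listed or named, 94 kept their call in every alternative that gave a value, 137 lost it in at least 1 and none changed direction. Of the 16 genes named for the sex difference none kept its call in every alternative, and of the 16 for the strain difference 7 did. Without atherogenic male replicate 2, 83 of the 231 lost their call, and under the replicate block 13 did.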
